A study of Mus musculus with 2 samples.

Results

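The genes described here are 10 regulators of the G1 phase of the cell cycle, measured in mouse embryonic stem (ES) cells. They comprise the D-type cyclins Ccnd1, Ccnd2 and Ccnd3, the E-type cyclins Ccne1 and Ccne2, the kinases Cdk4 and Cdk6, and the kinase inhibitors Cdkn1b, Cdkn2a and Cdkn2b. They were chosen by name: every non-control probe that carries 1 of these 10 gene names was taken, which gave 17 of the 39429 probes on the array and 10 of its 31896 gene names. All 10 genes were found, 4 with 1 probe and 6 with 2 or 3.

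The study compared 3 clones of ZHBTc4 by two-colour Agilent arrays. In this ES line the endogenous Oct4 (Pou5f1) alleles are disrupted and an Oct4 transgene that doxycycline switches off keeps the cells pluripotent. The clones labelled Nr5a2-EGFP (clone 26), Oct4-EGFP (clone 9) and EGFP (clone 2-5) each carry the pCAG-IP vector with that insert, driven by the ubiquitous CAG promoter. All were grown without feeders in 15% serum with LIF at 1000 IU per ml, and all were treated with doxycycline before RNA was taken, at a dose and for a time that the labels do not give. On 1 array the Nr5a2-EGFP clone (Cy5) was set against the EGFP clone (Cy3), and on the other it was set against the Oct4-EGFP clone (Cy3). Each condition is 1 monoclonal line, so the transgene and the clone cannot be told apart. There is 1 array per pair of clones, with no dye swap and no replicate culture, so no difference between clones was tested. Genes are described as at least 2-fold apart where the log2 ratio was at least 1 or at most -1.

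Progress through G1 depends on D-type cyclins, which pair with Cdk4 or Cdk6 and phosphorylate the retinoblastoma protein RB, and on E-type cyclins, which pair with Cdk2 and bring the cell into S phase once RB has released the E2F factors. The INK4 proteins encoded by Cdkn2a and Cdkn2b bind Cdk4 and Cdk6, and p27 (Cdkn1b) binds cyclin-Cdk2 complexes. Mouse ES cells are known for a short G1 phase with abundant cyclin E-Cdk2 activity and little cyclin D, and differentiation usually lengthens G1. Ccnd1 and Ccne1 have been reported as targets of the nuclear receptor Nr5a2 in mouse intestinal crypts.

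Of the 43020 spots, 78.1% to 80.1% were well above background in each of the 4 channels. The RNA of the Nr5a2-EGFP clone was read on both arrays, and over 26762 genes the difference between its readings had an SD of 0.30 on the log2 scale, with 1.64% of genes at least 2-fold apart. For the 17 probes of the 10 genes the readings differed by -0.24 to 0.33, and for their brightest probes by -0.21 to 0.17. Whether both readings came from the same RNA preparation is not stated in the labels. The brighter Nr5a2 probe read at a log2 ratio of -0.92 in the clone labelled Nr5a2-EGFP over the EGFP clone and -1.14 over the Oct4-EGFP clone. The dimmer Nr5a2 probe was also lower there, at -0.39 over EGFP and -0.63 over Oct4-EGFP. The only Pou5f1 probe was dim, at processed signals of 104 and 28.8 in the Nr5a2-EGFP clone, 116 in Oct4-EGFP cells and 118 in EGFP cells. Processed signals here and below are not normalized between the arrays, so their scale may differ from array to array. The log2 ratio of Pou5f1 was -0.12 for Nr5a2-EGFP over EGFP, -0.90 over Oct4-EGFP and 0.78 for Oct4-EGFP over EGFP. Whether these probes lie in the part of each gene that the transgene carries is not stated in the labels or files, so they check neither label, and every direction below rests on the labels.

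ES cell and trophoblast genes differed between the clones. Of the 11 pluripotency genes, 9 were at least 2-fold lower in the Nr5a2-EGFP clone than in the Oct4-EGFP clone, where 11.7% of all genes were apart. Over EGFP 0 of 10 were higher and 3 lower, where 8.41% of all genes were apart. The summed processed signal of the 11 genes was 75716 to 83284 in the Nr5a2-EGFP clone, 264171 in Oct4-EGFP cells and 140367 in EGFP cells. Without Nanog, whose brightest probe was saturated and disagreed with its other probe, the sums were 23676 to 29686 in the Nr5a2-EGFP clone, 189440 in Oct4-EGFP cells and 34719 in EGFP cells. These sums still hold Fgf4, whose readings were discordant at 2067 and 12175 in the Nr5a2-EGFP clone. It was at 80800 (saturated) in Oct4-EGFP cells and 9430 in EGFP cells. The readings of Nr5a2-EGFP cells were at least 2-fold apart for 5 of the 11 pluripotency genes, by -2.93 to 1.15, and with the other reading 8 of 11 were at least 2-fold lower than in Oct4-EGFP cells. For the 11 trophoblast genes the readings differed by -0.43 to 0.19. In the trophoblast list, 8 of 11 measured genes read at least 2-fold above the Oct4-EGFP clone in the Nr5a2-EGFP clone. Over EGFP 1 of the 11 was higher and 1 lower. The trophoblast sums were 101463 to 125303 in the Nr5a2-EGFP clone, 25096 in Oct4-EGFP cells and 147458 in EGFP cells. Sums of both lists are not normalized between arrays, so their ranges include the scale of each array. All 11 trophoblast genes were well above background in every channel, as were 10 of 11 pluripotency genes in the Nr5a2-EGFP clone, 11 of 11 in the Oct4-EGFP clone and 10 of 11 in the EGFP clone. Of 5 measured primitive endoderm genes 0 were at least 2-fold apart over EGFP and 1 was higher over Oct4-EGFP, and of 6 fibroblast genes 0 were apart over EGFP and 1 was lower over Oct4-EGFP. In RNA from whole cultures, fewer cells of a type and less RNA per cell cannot be told apart. The part of these shifts in the values below was not tested.

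The arrays read short stretches of these transcripts, and the last 30 bases of 5 probes are shown because they carry the ratios of at least 2-fold or, for the second Ccnd3 probe, a smaller ratio for the same gene. Sequences are from the deposited files, on mm9, and capitals mark the polyadenylation signal AATAAA.
Ccnd1 (chr7:152116202-152116261, minus strand): gttttgtgttaattacagcattgtgctaat
Ccnd3, brighter probe (chr17:47736579-47736638, plus strand): ctgctgccttAATAAAgatttcagAATAAA
Ccnd3, dimmer probe (chr17:47736267-47736326, plus strand): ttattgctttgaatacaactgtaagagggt
Cdkn2b, brighter probe (chr4:88952720-88952779, minus strand): ccaaggagatttagtattgtatgaagttcc
Cdkn2b, dimmer probe (chr4:88952276-88952335, minus strand): ctctatgcaaaatagtttaataaccacttt

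Of these 5, the brighter Ccnd3 probe alone holds AATAAA, with 2 matches. The motif was searched on the probe's own strand and occurs in 12.6% of the 39429 probes, and in 1 of the 17 probes of the 10 genes. The array was labelled from an oligo-dT primer, and the part of each transcript that a probe lies in is not given in the files.

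Promoter sequence from RefSeq (GRCm38.p6) was matched by symbol for 7 of the 10 genes, in 9 entries. Ccnd1, Ccnd2 and Ccne2 have none there. The 250 bases before the start are shown for Cdkn2b, which was at least 2-fold apart in a pair of comparisons, and for Ccne1, a reported Nr5a2 target. Capitals mark the cyclic AMP response element TGACGTCA in Cdkn2b and the GC box GGGGCGGGG, on either strand, in Ccne1.
Cdkn2b (chr4:89311033-89311282, minus strand): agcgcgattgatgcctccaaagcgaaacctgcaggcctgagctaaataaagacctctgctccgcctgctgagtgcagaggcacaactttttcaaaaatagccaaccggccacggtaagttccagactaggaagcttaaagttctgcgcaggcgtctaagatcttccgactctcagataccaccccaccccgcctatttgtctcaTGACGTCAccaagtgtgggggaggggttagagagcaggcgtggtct
Ccne1 (chr7:38107491-38107740, minus strand): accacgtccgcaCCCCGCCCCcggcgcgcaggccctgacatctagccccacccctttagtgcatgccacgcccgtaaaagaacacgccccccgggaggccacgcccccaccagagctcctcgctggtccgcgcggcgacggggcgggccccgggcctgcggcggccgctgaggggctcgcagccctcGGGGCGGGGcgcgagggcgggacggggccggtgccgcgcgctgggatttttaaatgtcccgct

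The element TGACGTCA lies 46 to 39 bases before the Cdkn2b start and was found in 1 of the 9 entries. It occurs in 1.55% of 32851 mouse promoter windows of the same length, searched on both strands. It was 1 of several motifs searched. The E-box CACGTG occurs in 6.02% of windows and in 2 of the 9 entries (Cdk4 and Cdk6). The E2F motif TTTCCCGC occurs in 0.89% and in 1 entry (Cdkn2a), and the E2F motif TTTGGCGC in 0.42% and 0 of 9. GGGGCGGGG occurs in 10.4% of those windows and in 4 of the 9 entries, those of Ccne1 and Cdk4 and both of Ccnd3. Motifs bound by Nr5a2, CAAGGTCA and CAAGGCCA, occur in 1.33% and 1.99% of all windows and in 0 of the 9 entries, and the octamer ATGCAAAT, which Oct4 binds, in 1.60% and 0 of 9. A match or its absence describes these letters in this window only.

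The D-type cyclins did not move together: Ccnd1 read lowest in the Nr5a2-EGFP clone, Ccnd3 read higher in the Nr5a2-EGFP and Oct4-EGFP clones than in EGFP cells, and Ccnd2 stayed within the spread of readings. Ccnd1 (NM_007631, 1 probe) encodes cyclin D1, the D-type cyclin most often induced by growth factor signals. Its processed signal, which is the scanner software's intensity after background subtraction and dye normalization, was 729 and 582 in the 2 readings of Nr5a2-EGFP cells, 1428 in Oct4-EGFP cells and 4048 in EGFP cells. Both Nr5a2-EGFP readings lay below the other clones, and the order was Nr5a2-EGFP, Oct4-EGFP, EGFP. After loess normalization the log2 ratio was -2.34 for Nr5a2-EGFP over EGFP (5.07-fold lower) and -1.26 for Nr5a2-EGFP over Oct4-EGFP (2.40-fold lower).

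The Oct4-EGFP and EGFP clones were never on the same array, so they were compared indirectly, as the ratio over EGFP minus the ratio over Oct4-EGFP. Ccnd1 was then at -1.08 for Oct4-EGFP over EGFP (2.11-fold lower). With the reading of the Nr5a2-EGFP clone taken from the other array the direct ratios were -2.51 over EGFP and -1.09 over Oct4-EGFP. The software's own log2 ratios were -2.47 over EGFP and -1.30 over Oct4-EGFP. Their error, which covers the spot and not the culture, was 0.31 on the EGFP array and 0.24 on the Oct4-EGFP array. Each of the steps between neighbouring clones exceeded the spread of 0.30 between readings, which comes from 1 clone and does not measure variation between clones. The comparison between the Oct4-EGFP and EGFP clones was the closest to the 2-fold rule, and it was at -0.94 where the arrays were centred on their medians in place of loess.

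Ccnd1 was far out in the distribution over EGFP, where 65 of 26028 genes (0.25%) had a lower ratio. Over Oct4-EGFP 1151 of 26140 genes (4.40%) were lower, and in the indirect comparison 1298 of 26411 (4.91%). The position of Ccnd1 in the plane of the direct ratios was 2.66 log2 units from the origin, the largest distance among the 10 genes, followed by Cdkn2b at 1.52 and Ccnd3 at 1.21. Both ratios share the RNA of the Nr5a2-EGFP clone.

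Among 23829 genes well above background in all 4 channels, the 5 nearest to Ccnd1 were Eml1, Prr15, Gm1995, Gm10394 and Msgn1, at distances of 0.06 to 0.19. Eml1, which encodes a microtubule-associated protein, had processed signals of 3112 and 2503 in the Nr5a2-EGFP clone, 5618 in Oct4-EGFP cells and 15626 in EGFP cells. Msgn1, a transcription factor of presomitic mesoderm, was dimmer, at 63.1 and 65.4 in the Nr5a2-EGFP clone, 201 in Oct4-EGFP cells and 737 in EGFP cells. For Gm1995 the Nr5a2-EGFP readings were 1.07 apart, so its place beside Ccnd1 holds for 1 set of readings.

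**Figure D1:**
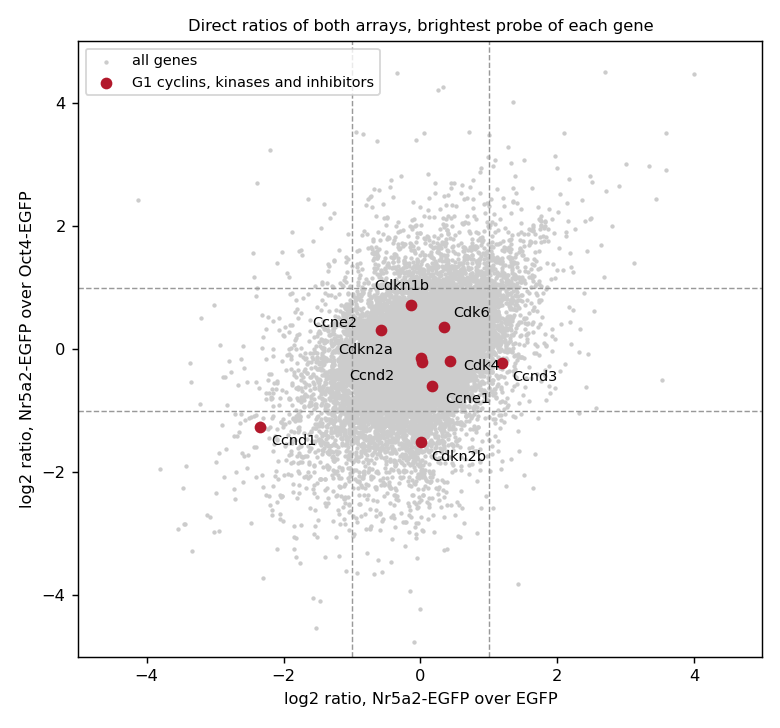
Each gene's log2 ratio on the 2 arrays, with Nr5a2-EGFP over EGFP on one axis and Nr5a2-EGFP over Oct4-EGFP on the other; dashed lines mark 2-fold, grey points are all measured genes, red points the brightest probe of each of the 10 regulators. Ccnd1 lies at -2.34 and -1.26, Cdkn2b at 0.00 and -1.52, Ccnd3 at 1.19 and -0.23, and the other regulators lie nearer to the origin.

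Genes around Ccnd1 were examined on mm9, within 250 kb of its probe, where 7 other genes have probes and 6 were measured. Fgf4, 65.1 kb away and a growth factor of pluripotent cells, also read lower in the Nr5a2-EGFP clone, but its readings of that clone were 2.93 apart on the log2 scale, at processed signals of 2067 and 12175, against 80800 (saturated) in Oct4-EGFP cells and 9430 in EGFP cells. Its log2 ratio over EGFP was -2.20 with the reading of the same array and 0.73 with the other, so its direction depends on the reading. Fgf3, a fibroblast growth factor 88.6 kb away, was at 0.05 over EGFP and -1.07 over Oct4-EGFP. The probe of the transcript ENSMUST00000105895 lies 1.27 kb from that of Ccnd1 and was at -0.53 over EGFP, 0.75 over Oct4-EGFP and -1.28 for Oct4-EGFP over EGFP. Leaving Fgf4 aside, no measured gene in this window was at least 2-fold lower over EGFP, as Ccnd1 was.

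**Figure D2:**
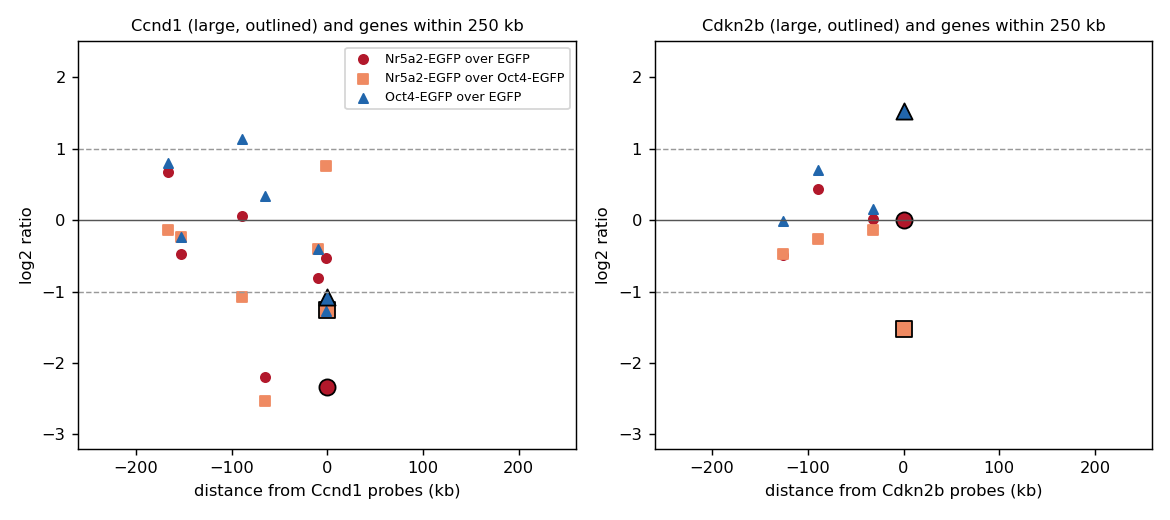
Log2 ratios in the 3 comparisons (marker shapes) of Ccnd1 and of Cdkn2b (large outlined markers) and of the measured genes within 250 kb, by distance in kb between the probes; dashed lines mark 2-fold. The lowest points left of Ccnd1 are Fgf4, whose ratios rest on 1 of the discordant Nr5a2-EGFP readings on each array and, over Oct4-EGFP, on a saturated spot. Also below -1 there are Fgf3 over Oct4-EGFP (-1.07) and ENSMUST00000105895 for Oct4-EGFP over EGFP (-1.28). Beside Cdkn2b none of the 3 measured genes reaches 1 or -1.

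Ccnd3 encodes cyclin D3 and was read by a pair of probes that differed in the size of the ratio. The brighter probe (NM_001081636) had processed signals of 47996 and 34791 in the Nr5a2-EGFP clone, 48236 in Oct4-EGFP cells and 22578 in EGFP cells. After normalization between arrays the probe differed by 0.07 on the log2 scale between its readings of the Nr5a2-EGFP clone. Its log2 ratio was 1.19 for Nr5a2-EGFP over EGFP (2.27-fold higher), -0.23 over Oct4-EGFP and 1.41 for Oct4-EGFP over EGFP (2.67-fold higher). The EGFP clone was thus below the others, which after loess differed from each other by less than the spread of readings. The software's own log2 ratio over Oct4-EGFP was -0.47, with an error of 0.21, which is beyond that spread.

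The dimmer Ccnd3 probe (NM_007632) had signals of 15214 and 9850 in the Nr5a2-EGFP clone, 10883 in Oct4-EGFP cells and 9922 in EGFP cells. It gave 0.63 for Nr5a2-EGFP over EGFP, -0.11 over Oct4-EGFP and 0.75 for Oct4-EGFP over EGFP, and with the other reading 0.30 over EGFP and 0.21 over Oct4-EGFP, so its sign over Oct4-EGFP depends on the reading. The 2-fold difference of Ccnd3 therefore rests on the brighter probe, and the mean of the probes over EGFP was 0.91. In the distribution, 480 of 26028 genes (1.84%) had a higher ratio over EGFP than the brighter probe, and in the indirect comparison 757 of 26411 (2.87%).

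Ccnd2 (NM_009829, 1 probe) encodes cyclin D2. Its processed signal was low and near level, at 196 and 178 in the Nr5a2-EGFP clone, 208 in Oct4-EGFP cells and 192 in EGFP cells. The log2 ratios were 0.02 over EGFP, -0.21 over Oct4-EGFP and 0.23 for Oct4-EGFP over EGFP, all within the spread of readings.

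**Figure D3:**
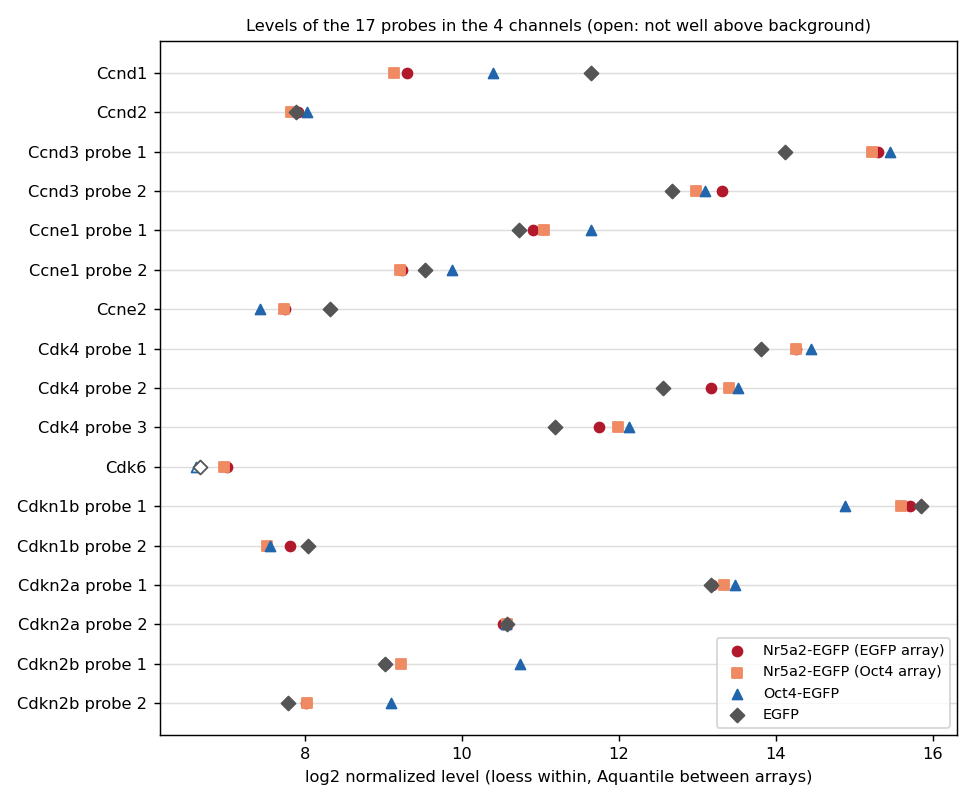
Normalized log2 level (horizontal axis) of each of the 17 probes in the 4 channels; markers stand for the readings of the Nr5a2-EGFP clone on each array, the Oct4-EGFP clone and the EGFP clone, open markers are not well above background, and levels are comparable along a probe only. Ccnd1 is lowest in the Nr5a2-EGFP readings, at 10.39 in Oct4-EGFP cells and at 11.64 in EGFP cells, while both Cdkn2b probes are highest in the Oct4-EGFP clone.

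The E-type cyclins stayed under the 2-fold rule in every comparison, Ccne1 reading lower in the Nr5a2-EGFP clone than in the Oct4-EGFP clone on both of its probes. Ccne1 (NM_007633) encodes cyclin E1, the Cdk2 partner that drives entry into S phase. The brighter probe had processed signals of 2289 and 2192 in the Nr5a2-EGFP clone, 3304 in Oct4-EGFP cells and 2007 in EGFP cells. Its log2 ratio was 0.17 over EGFP, -0.61 over Oct4-EGFP (1.52-fold lower) and 0.78 for Oct4-EGFP over EGFP (1.72-fold higher). The dimmer probe had 644 and 581 in the Nr5a2-EGFP clone, 900 in Oct4-EGFP cells and 784 in EGFP cells. It gave -0.30 over EGFP, -0.67 over Oct4-EGFP and 0.37 for Oct4-EGFP over EGFP, so the probes shared the sign over Oct4-EGFP and differed in sign over EGFP. None of the 5 measured genes within 250 kb of the Ccne1 probe was at least 2-fold apart in any comparison.

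Ccne2 (NM_001037134, 1 probe) encodes cyclin E2, which also activates Cdk2. Processed signals were 162 and 145 in the Nr5a2-EGFP clone, 101 in Oct4-EGFP cells and 270 in EGFP cells. Unlike for Ccne1, the Oct4-EGFP clone read lowest. The log2 ratios were -0.57 for Nr5a2-EGFP over EGFP (1.49-fold lower), 0.31 over Oct4-EGFP and -0.88 for Oct4-EGFP over EGFP (1.84-fold lower). The last was -1.26 from the software's ratios and -1.29 from the authors' deposited value table, past the 2-fold rule. The probe is dim, and 15% of its bases are G or C.

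The kinases stayed under the 2-fold rule in every comparison given. Cdk4 (NM_009870), the main D-cyclin kinase of most cycling cells, was read by 3 probes with the same signs. All 3 also list a predicted transcript of LOC640611, so their signal cannot be assigned to Cdk4 alone. The brightest had processed signals of 22942 and 17476 in the Nr5a2-EGFP clone, 21608 in Oct4-EGFP cells and 17080 in EGFP cells. The 3 probes gave log2 ratios of 0.44, 0.61 and 0.57 for Nr5a2-EGFP over EGFP. Over Oct4-EGFP they gave -0.19, -0.12 and -0.14, within the spread of readings. For Oct4-EGFP over EGFP they gave 0.63, 0.73 and 0.71, so Cdk4 read lowest in the EGFP clone on every probe, by less than 2-fold.

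Cdk6 (NM_009873, 1 probe), the other D-cyclin kinase, was well above background only in Nr5a2-EGFP cells. Its processed signal was 66.5 and 51.7 there, 28.0 in Oct4-EGFP cells and 37.8 in EGFP cells, and neither of the others was well above background. Its log2 ratio after loess was 0.35 over EGFP and 0.35 over Oct4-EGFP. The software's own ratios were larger, at 0.82 and 0.89, with errors of 0.43 and 0.54. The authors' value table gave 0.81 and 0.95. With the other clones not well above background, no fold is given. No value is given for Oct4-EGFP over EGFP.

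Among the inhibitors, Cdkn2b stood highest in the Oct4-EGFP clone, its neighbour Cdkn2a was level, and Cdkn1b read lowest in the Oct4-EGFP clone on its brighter probe, by less than 2-fold. Cdkn2b (NM_007670) encodes p15, an INK4 inhibitor that is known to respond to TGF-beta in epithelial cells. The brighter probe had processed signals of 517 and 552 in the Nr5a2-EGFP clone, 1618 in Oct4-EGFP cells and 495 in EGFP cells. The Oct4-EGFP clone lay apart from all other readings. The log2 ratio was 0.00 over EGFP, -1.52 over Oct4-EGFP (2.86-fold lower) and 1.52 for Oct4-EGFP over EGFP (2.87-fold higher).

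The dimmer Cdkn2b probe had signals of 214 and 218 in the Nr5a2-EGFP clone, 513 in Oct4-EGFP cells and 173 in EGFP cells. It gave 0.23 over EGFP, -1.06 over Oct4-EGFP (2.09-fold lower) and 1.29 for Oct4-EGFP over EGFP (2.45-fold higher), so both probes passed the 2-fold rule in the same comparisons. With the other reading of the Nr5a2-EGFP clone the ratios over Oct4-EGFP were -1.73 and -1.07. Over Oct4-EGFP 746 of 26140 genes (2.85%) had a lower ratio than the brighter probe, and 611 of 26411 (2.31%) had a higher one in the indirect comparison. The Oct4-EGFP clone was read on 1 array only, so this level has no second reading.

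Cdkn2a encodes p16 (INK4A) and, from another promoter and reading frame, p19 (ARF), which acts through p53. Both of its probes list transcripts NM_009877 and NM_001040654 in the files, so the products cannot be told apart. The brighter probe had processed signals of 11902 and 10481 in the Nr5a2-EGFP clone, 11554 in Oct4-EGFP cells and 11448 in EGFP cells. The dimmer had 1661 and 1555 in the Nr5a2-EGFP clone, 1476 in Oct4-EGFP cells and 1696 in EGFP cells. Over both probes the log2 ratios were 0.01 and -0.05 over EGFP, -0.15 and 0.02 over Oct4-EGFP, and 0.16 and -0.06 for Oct4-EGFP over EGFP. No channel stood apart, although the Cdkn2b probe lies 32.1 kb away. The other measured genes within 250 kb of Cdkn2b were below 2-fold as well: Mtap, the methylthioadenosine phosphorylase gene, was at -0.49 over EGFP and -0.47 over Oct4-EGFP, and Gm12605 was at 0.44 and -0.26.

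Cdkn1b encodes p27, a Cip/Kip inhibitor. Its brighter probe (NM_009875) was near the top of the scale, at 62779 (saturated) and 46239 in the Nr5a2-EGFP clone, 33057 in Oct4-EGFP cells and 80258 in EGFP cells. The ratio over EGFP was -0.14 and, because the reading of the Nr5a2-EGFP clone was saturated there, bounds no fold. Over Oct4-EGFP, where it was not saturated, the log2 ratio was 0.72 (1.65-fold higher), and for Oct4-EGFP over EGFP it was -0.86 (1.82-fold lower), a value that includes the saturated reading. With Cy3 levels alone the indirect value was -0.98. The dimmer probe (ENSMUST00000067327) had 152 and 114 in the Nr5a2-EGFP clone, 113 in Oct4-EGFP cells and 187 in EGFP cells, with ratios of -0.23, -0.03 and -0.20. With the other reading these were -0.52 and 0.26, and -0.49 with Cy3 levels alone.

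**Figure D4:**
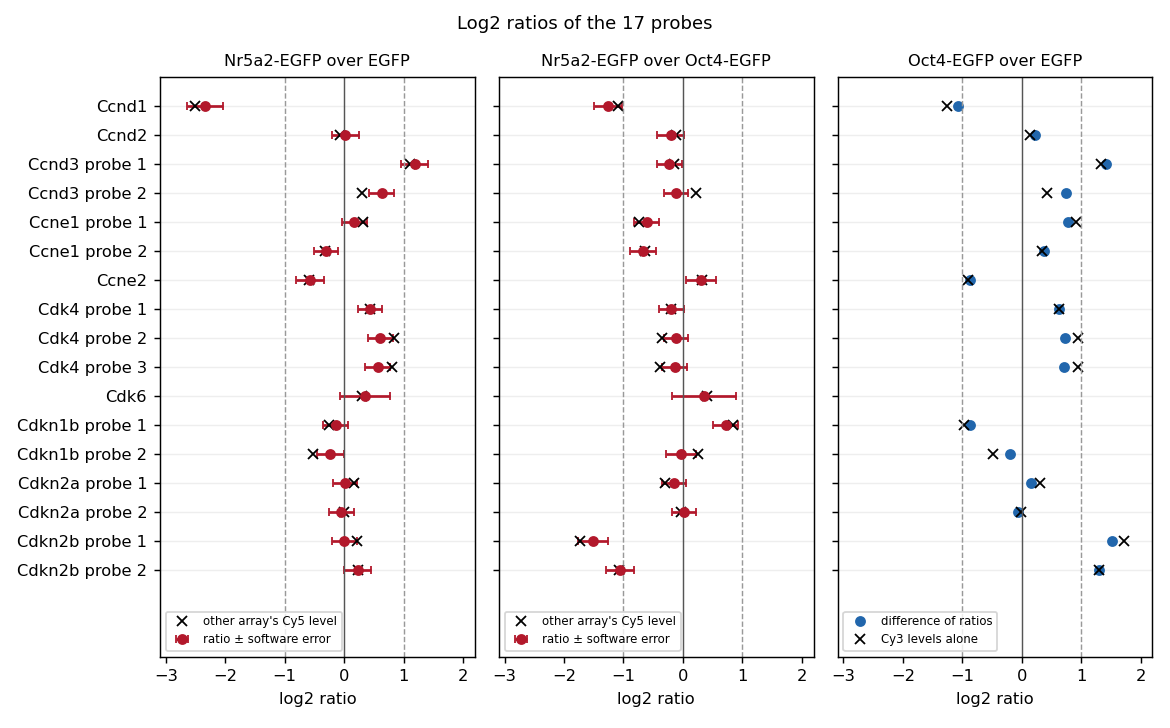
Log2 ratios after loess of the 17 probes in the 3 comparisons (1 panel each). Bars on the direct ratios are the error of the scanner software's own ratio. Crosses use the other array's Nr5a2-EGFP reading or, for the indirect comparison, Cy3 levels alone, and dashed lines mark 2-fold. Ccnd1 is below the lower line in all 3 panels, both Cdkn2b probes pass a line in the 2 panels that include Oct4-EGFP, and the brighter Ccnd3 probe (probe 1) in the 2 that include EGFP.

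Counted by the brightest probe, 1 of the 10 genes passed the rule upwards (Ccnd3) and 1 downwards (Ccnd1) for Nr5a2-EGFP over EGFP, where 8.41% of 26028 genes passed it, 3.34% upwards and 5.07% downwards. Over Oct4-EGFP 0 genes were higher and 2 lower (Ccnd1 and Cdkn2b), where 11.7% of 26140 genes were apart, 4.54% higher and 7.11% lower. For Oct4-EGFP over EGFP 2 of 9 genes were higher (Ccnd3 and Cdkn2b) and 1 lower (Ccnd1), where 12.3% of 26411 were apart, 6.47% higher and 5.86% lower. The medians of the regulators were 0.02, -0.20 and 0.23, beside 0.03, 0.01 and 0.02 over all genes. Cdk6 entered the direct comparisons through the Nr5a2-EGFP channel alone, where it was highest. With signal required in every channel, 9 regulators remained, with medians of 0.01 over EGFP and -0.21 over Oct4-EGFP, and the same genes passed the rule. Counts of 2, 2 and 3 genes are too few to set the regulators apart from that background. Probes of the same gene differed by at most 0.76 in log2 ratio among the 6 regulators with several probes.

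The rest of the pathway was read from lists of related genes. Beside each count stand the shares of all genes at least 2-fold apart. These were 8.41% over EGFP, 11.7% over Oct4-EGFP and 12.3% in the indirect comparison. Of 12 other G1/S regulators, 0 were at least 2-fold higher and 1 lower over EGFP, 1 higher and 0 lower over Oct4-EGFP, and 0 higher and 1 lower in the indirect comparison. Ccnh, the cyclin of the Cdk-activating kinase, was at -1.02 over EGFP and 0.02 over Oct4-EGFP. Cdkn1c, which encodes the p57 inhibitor known from trophoblast giant cells, was at 0.44 over EGFP and 1.06 over Oct4-EGFP, or 0.81 with the other reading. Cdkn1a, the p21 gene induced by p53, was at -0.62 over EGFP and -0.95 over Oct4-EGFP, and its other probe was at -1.27 and -0.52. Cks1b, which encodes a small Cdk-binding protein, was at -0.83 over EGFP, or near 0 with the other reading.

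In the RB and E2F family, 0 of 13 genes were at least 2-fold apart over EGFP, 1 of 12 was higher and 2 lower over Oct4-EGFP, and 1 of 12 was higher and 2 lower in the indirect comparison. The count is by the brightest probe, and the other probe of E2f7, an atypical repressor E2F, was at 1.68 over EGFP and 1.21 over Oct4-EGFP. E2f6, a repressor E2F, was at -0.51 over EGFP, 0.86 over Oct4-EGFP and -1.37 for Oct4-EGFP over EGFP. E2f2, an activating E2F, had processed signals of 1347 and 1513 in the Nr5a2-EGFP clone, 5985 in Oct4-EGFP cells and 2420 in EGFP cells. Its log2 ratio was -0.84 over EGFP and -2.00 over Oct4-EGFP. Rbl1, the p107 gene of the RB family, was at -0.84 and -1.52, with -0.66 over Oct4-EGFP on another probe. E2f3, another activating E2F, had 4299 and 3271 in the Nr5a2-EGFP clone, 1402 in Oct4-EGFP cells and 5383 in EGFP cells. It was at -0.38 over EGFP and 1.10 over Oct4-EGFP, or 0.87 on another probe, so the direction over Oct4-EGFP was opposite to that of E2f2. Rb1 itself was at -0.77 and -0.91, and E2f8, another atypical repressor, was at 0.90 over EGFP and was not measured over Oct4-EGFP.

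Genes of S phase and of mitosis were counted in the same way. Of the S phase genes, 0 of 15 were at least 2-fold apart over EGFP, and 1 of 16 was higher and 2 lower over Oct4-EGFP. In the indirect comparison 0 of 15 were higher and 1 was lower. The share over Oct4-EGFP was 18.75%, beside 11.7% of all genes. Over Oct4-EGFP the helicase subunit gene Mcm2 was at -1.02 and Mcm6, another subunit of that helicase, at 1.05, or -0.84 and 0.65 with the other reading, and Cdc45, a further helicase component, was at -1.05. The largest ratios over EGFP were those of Mcm3, at 0.72, and of the DNA polymerase alpha gene Pola1, at 0.40. Of 16 G2 and M phase genes, 1 was higher and 1 lower over EGFP and 0 were at least 2-fold apart over Oct4-EGFP. In the indirect comparison 1 was higher and 1 lower. Bub1b, a spindle checkpoint kinase gene, had processed signals of 15270 and 13067 in the Nr5a2-EGFP clone, 10432 in Oct4-EGFP cells and 3793 in EGFP cells, at 1.93 over EGFP. Foxm1, a factor that activates mitotic genes, was at -1.81 over EGFP, or -0.94 on another probe. Over Oct4-EGFP the mitotic kinase gene Plk1 was at -0.71 and the topoisomerase gene Top2a at 0.66.

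Cdkn2a and Cdkn2b are known targets of Polycomb and T-box repressors, and 10 such genes were listed, of which 9 were measured. Of these, 1 was at least 2-fold higher over EGFP and 0 lower, and over Oct4-EGFP 1 was higher and 1 lower. Tbx3 was saturated in the Nr5a2-EGFP clone. After loess it read 2.80-fold higher there than in the EGFP clone and 1.83-fold higher than in the Oct4-EGFP clone, while the software's own log2 ratios were lower, at 1.30 and 0.61. With the saturated spots, each value is a lower bound within its own normalization only. Tbx2 had 117 and 131 in the Nr5a2-EGFP clone, 586 in Oct4-EGFP cells and 124 in EGFP cells, at -0.04 over EGFP and -1.76 over Oct4-EGFP. Bmi1, a Polycomb subunit gene, had 538 and 525 in the Nr5a2-EGFP clone, 148 in Oct4-EGFP cells and 646 in EGFP cells, at -0.24 and 1.40, or 0.53 over Oct4-EGFP on another probe. Eed, also of Polycomb, was at 0.76 over EGFP. The Oct4-EGFP clone stood apart for Tbx2, on the high side, and for the brighter Bmi1 probe, on the low side.

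**Figure D5:**
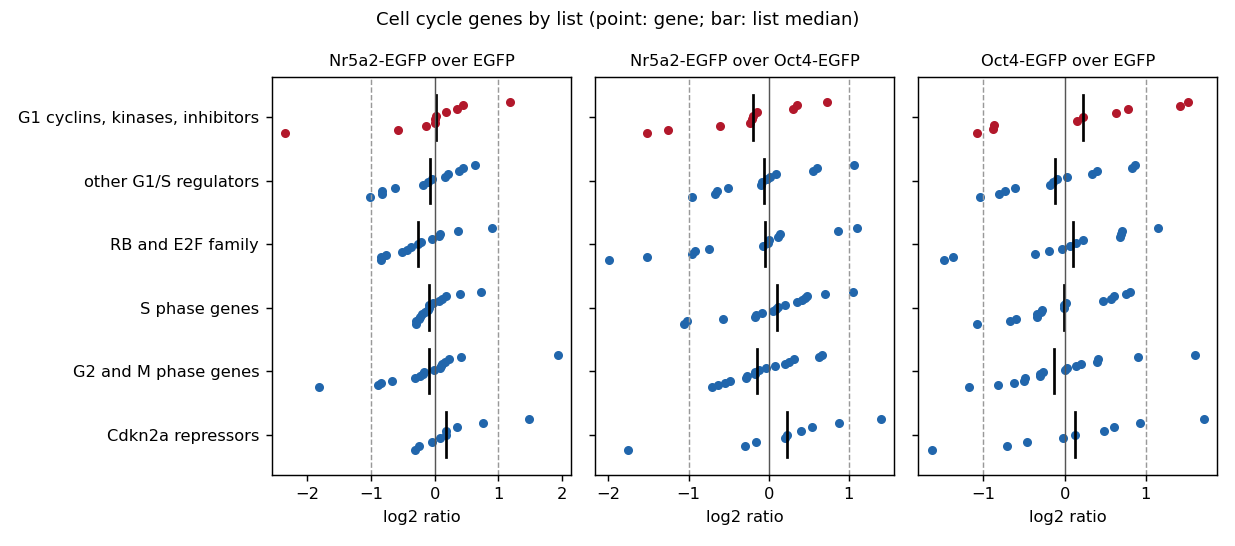
Log2 ratios of the genes of the 6 cell cycle lists in the 3 comparisons (one panel each); a point is a gene by its brightest probe, a bar the list's median, and dashed lines mark 2-fold. The list medians lie between -0.26 and 0.23, and Ccnd1 is the lowest point over EGFP and Bub1b the highest.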

How the data were processed

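The deposited scanner files hold intensity values of each spot from Agilent Feature Extraction (10.7.3.1 per the file headers, 9.3.2.1 per the submitters' processing notes) for 2 arrays of design 026655 with probe positions on mm9. The deposited processed signals are background-subtracted and dye-normalized, per the file headers, and were not normalized between arrays here. The log10 ratio of Cy5 over Cy3 with its error, and flags for saturation, outliers and spots well above background, were deposited beside them. The authors' deposited value table of log2 ratios followed the log10 ratio with r = 0.997 on each array (medians 0.03 and 0.05), and its scale and centring are unknown.

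Mean signals were corrected by normexp (offset 50), loess within arrays and Aquantile between them, in limma 3.58.1 (R 4.3.3), with control and outlier spots (530 and 523) left out. A gene is its brightest probe and entered a direct comparison if well above background in at least 1 channel of that array. It entered the indirect comparison if well above background in at least 1 Cy3 channel. Names were updated by accession through RefSeq (26055 probes, 66.1%). The indirect comparison was computed in Python 3.11.15 with pandas 2.3.3. The steps were tested on simulated arrays. The naming rule took all probes of the 10 regulators, the 5 genes nearest to Ccnd1 and, per cell cycle list, the 2 genes with the largest ratios in each direct comparison. It allowed others at least 2-fold apart, neighbours within 250 kb included, and some of these are named; it covered the marker lists too, which are given mainly as counts. The regulators, lists and rules were chosen with earlier results of these data known. Alternatives covered normalization, background, probes, filter, size rule, reading and value table. Precision is limited by there being 1 array per pair of clones.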

Additional observations from a re-analysis of the deposited data

How the results depend on the processing

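For single regulators, 221 of 230 values under the alternatives moved by less than the spread of readings, 9 moved by more, and 0 changed sign past the 2-fold rule. Part of the 221 were the main values again. This held for all values without a filter on dim probes (29) and with signal well above background required in every channel (27). It also held for the mean over probes of the 4 genes with 1 probe. Ccnd1 stayed at least 2-fold lower over EGFP (-2.51 to -2.15) and over Oct4-EGFP (-1.30 to -1.09) in all 9 settings, the main one included. Cdkn2b stayed at least 2-fold apart over Oct4-EGFP (-1.73 to -1.29) and in the indirect comparison (1.41 to 1.73). For Ccnd1, which has 1 probe, the mean over probes and both filter settings gave the main value. With the mean over probes, 0 regulators were at least 2-fold higher over EGFP, because Ccnd3 was at 0.91. For Oct4-EGFP over EGFP, 2 regulators were lower with the software's ratio and 2 with the value table (Ccnd1 and Ccne2), and 0 with median centring, where Ccnd1 was at -0.94. With a 1.5-fold rule, 1 regulator was higher over Oct4-EGFP (Cdkn1b) and 3 lower (Ccnd1, Ccne1 and Cdkn2b), and for Oct4-EGFP over EGFP 4 were higher (Ccnd3, Ccne1, Cdk4 and Cdkn2b) and 3 lower (Ccnd1, Ccne2 and Cdkn1b).

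Over all genes, 2189 were at least 2-fold apart over EGFP, 3047 over Oct4-EGFP and 3257 in the indirect comparison, and the software's ratio gave 3918, 4572 and 5080. The value table gave 3907, 4592 and 4968, and a 1.5-fold rule 6975, 7508 and 7990. Median centring moved the median of all genes over EGFP to 0.16, and the higher share of genes apart there to 63.4%, beside 39.7% with loess. No paired analysis was possible because each pair of clones has 1 array. Dim probes (Cdk6, Ccne2, Ccnd2) and the saturated Cdkn1b probe limit what their ratios show, and without a dye swap a dye effect may enter the direct ratios.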
